A study of Mus musculus with 6 samples.

Results

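The insulin-like growth factor (IGF) axis was followed across 10 genes of the deposited count table, out of 53801 gene entries: the ligand gene Igf2, the receptor genes Igf1r, Insr and Igf2r, the adaptor genes Irs1 and Irs2, the RNA-binding protein genes Igf2bp1, Igf2bp2 and Igf2bp3, and Lin28b. They were chosen by name as parts of this axis, with earlier results of these data known. Gene identifiers were matched to symbols with GENCODE M21. RNA was counted in 3 libraries with Arid3a-FLAG and 3 with LUC, and the comparison asked how these transcripts differed once ARID3A, which binds DNA through an AT-rich interaction domain, was induced.

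Both groups were fetal liver cells collected at E12.5-13.5 from mice labelled B6J.129(Cg), in which an allele of Gt(ROSA)26Sor lets the CAG promoter drive Cas9 and EGFP. In both, a guide against Gata1 (sgGata1) gave cells called Gata1s, a name for truncated GATA1, a transcription factor of blood cells, and both carried lentiviral miR-125b. The Arid3a-FLAG cells held a doxycycline-inducible Arid3a-FLAG construct, and the LUC cells held an inducible LUC construct in its place. Both received doxycycline at 1 μg/mL for 48 h. Whether the replicates are separate cultures or animals is not labelled, so every p-value reflects only how far these samples vary among themselves, and that variation may be technical. Edited and unedited Gata1 transcripts are counted together.

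IGF1 and IGF2 signal through the IGF1 receptor and, in part, the insulin receptor. These tyrosine kinases pass the signal to IRS adaptors and on to the PI3K-AKT-mTOR pathway, while the IGF2 receptor binds IGF2 without a kinase of its own and carries it to lysosomes. LIN28B blocks maturation of the let-7 microRNAs, and IGF2BP proteins bind and stabilise transcripts, Igf2 among them; both belong to the fetal gene programme that let-7 represses. IGF signalling is known to support the growth of fetal megakaryocyte progenitors.

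Library totals ran from 15730908 to 18249053 counts. The Arid3a construct had 2758 to 3348 counts in the Arid3a-FLAG libraries and 0 in each LUC library. Replicate 2 of LUC stood apart from the other libraries in a principal component analysis of log2 CPM (read counts scaled to the library total), on the component after the first, which held 24.0% of the variance, and results that rest on it are given with and without it. All 15 megakaryocyte markers examined were detected, with a summed level of 7497 to 8046 CPM with Arid3a-FLAG and 6922 to 8690 CPM with LUC. Of 15 hepatocyte markers, 8, Hnf4a and Apob among them, had 0 counts in every library, and Alb had 3 counts in all libraries together. Afp, the alpha-fetoprotein gene of fetal hepatocytes, was the exception, at 19.7, 15.7 and 18.96 CPM with Arid3a-FLAG and 18.8, 25.9 and 21.6 CPM with LUC. It made up most of the list's sum of 16.4 to 20.4 CPM with Arid3a-FLAG and 20.3 to 27.3 CPM with LUC, its groups overlapped, and it did not pass (adjusted p = 0.245, edgeR).

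The small RNAs that meet on this axis have short seeds, and these are printed because the same letters recur in the transcripts described here. The mature sequences are those of RefSeq on GRCm38.p6, written 5′ to 3′, with the seed, bases 2 to 8, in capitals. The first is the microRNA supplied to both groups (chr9:41581940-41581961, plus strand), and the second is 1 member of the let-7 family that LIN28B restrains (chr13:48538239-48538260, minus strand).
mmu-miR-125b-5p: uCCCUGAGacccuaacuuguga
mmu-let-7a-5p: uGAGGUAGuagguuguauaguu

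The other let-7 microRNAs found in the table under the names let-7b, let-7g, let-7i and miR-98 shared the let-7a seed. One 3′ untranslated region (UTR) per gene was read from the GENCODE M21 transcripts. The complement of the let-7 seed, CTACCTC, was present in 8 of the 10 genes, the exceptions being Irs1 and Igf2, and in 9.02% of 21037 mouse 3′ UTRs. Igf2bp1 and Lin28b held 4 matches each and Igf1r held 2. Long UTRs hold more matches by length alone: among genes with a UTR of similar length, 34.4% had at least 1 match for Igf2bp1, 24.4% for Lin28b and 39.0% for Igf1r, but 9.65% for Igf2r. The complement of the miR-125b seed, CTCAGGG, was present in Igf2bp3 and Lin28b, once in each, and in 13.1% of all UTRs. Among UTRs of similar length the share was 20.4% for Igf2bp3 and 32.5% for Lin28b.

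The sites of the 3 genes that changed and of the 2 genes with a miR-125b match are shown on the transcript strand, on GRCm38, with the 7 bases complementary to the seed in capitals. They lie at chr17:12683032-12683055 (Igf2r), chr8:10986524-10986547 (Irs2), chr16:22059469-22059492 (Igf2bp2), chr6:49085527-49085550 (Igf2bp3) and chr10:45378794-45378817 (Lin28b), all on the minus strand. A match is a description of the letters and not a measured binding site.
Igf2r, let-7 match: ctgctccgtgccCTACCTCatctc
Irs2, let-7 match: actaccacagtcCTACCTCagttc
Igf2bp2, let-7 match: cacaaataaaagCTACCTCaggtg
Igf2bp3, miR-125b match: tcctgcttgggtCTCAGGGgagat
Lin28b, miR-125b match: caaagaactttgCTCAGGGaacat

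**Figure D1:**
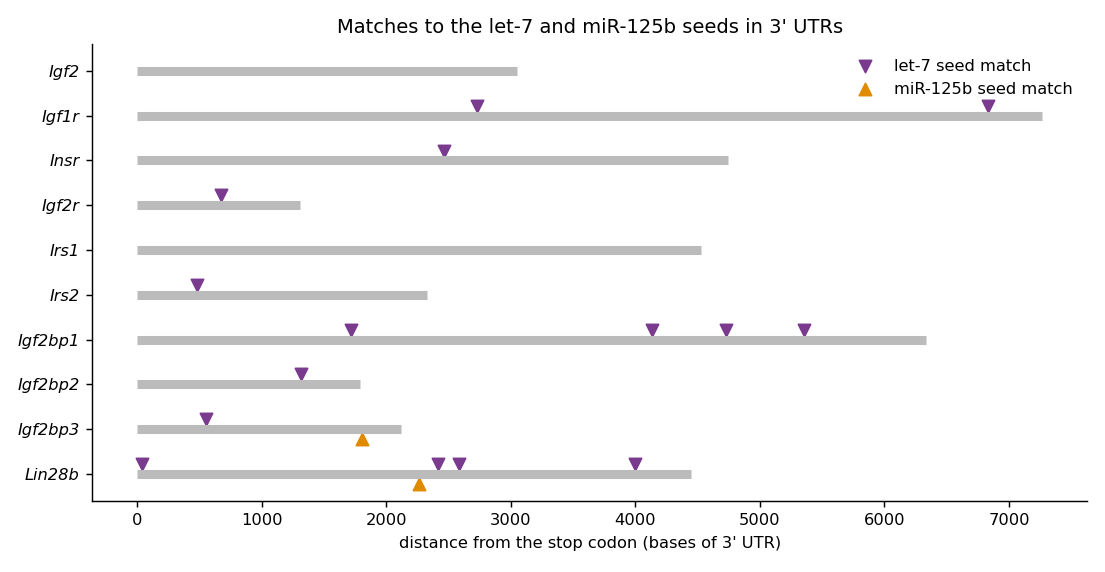
Position of each match to the let-7 seed (downward triangles) and the miR-125b seed (upward triangles) along the 3′ UTR of the 10 genes, in bases from the stop codon; grey bars are UTR lengths. Igf2bp1 and Lin28b carry 4 let-7 matches each, and the miR-125b matches lie in Igf2bp3 and Lin28b.

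Of the 10 genes, 7 had enough counts to be tested. With Arid3a-FLAG, Igf2r and Irs2 rose and Igf2bp2 fell at an adjusted p under 0.05 in edgeR's quasi-likelihood test, while Igf1r, Insr, Igf2bp3 and Lin28b did not pass. Over the whole table, 7.29% of 13631 tested genes passed, 3.43% higher and 3.87% lower, so 2 of 7 higher and 1 of 7 lower are to be read against those shares. The libraries of the groups did not overlap for 4 of the 7, the 3 called genes and Igf1r, against 33.1% of all tested genes. The median log2 fold change of the 7 was 0.20, beside a median of -0.03 over all tested genes. In bulk RNA, fewer cells that express a gene and less of its RNA per cell cannot be told apart, and this holds for every change given here.

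**Figure D2:**
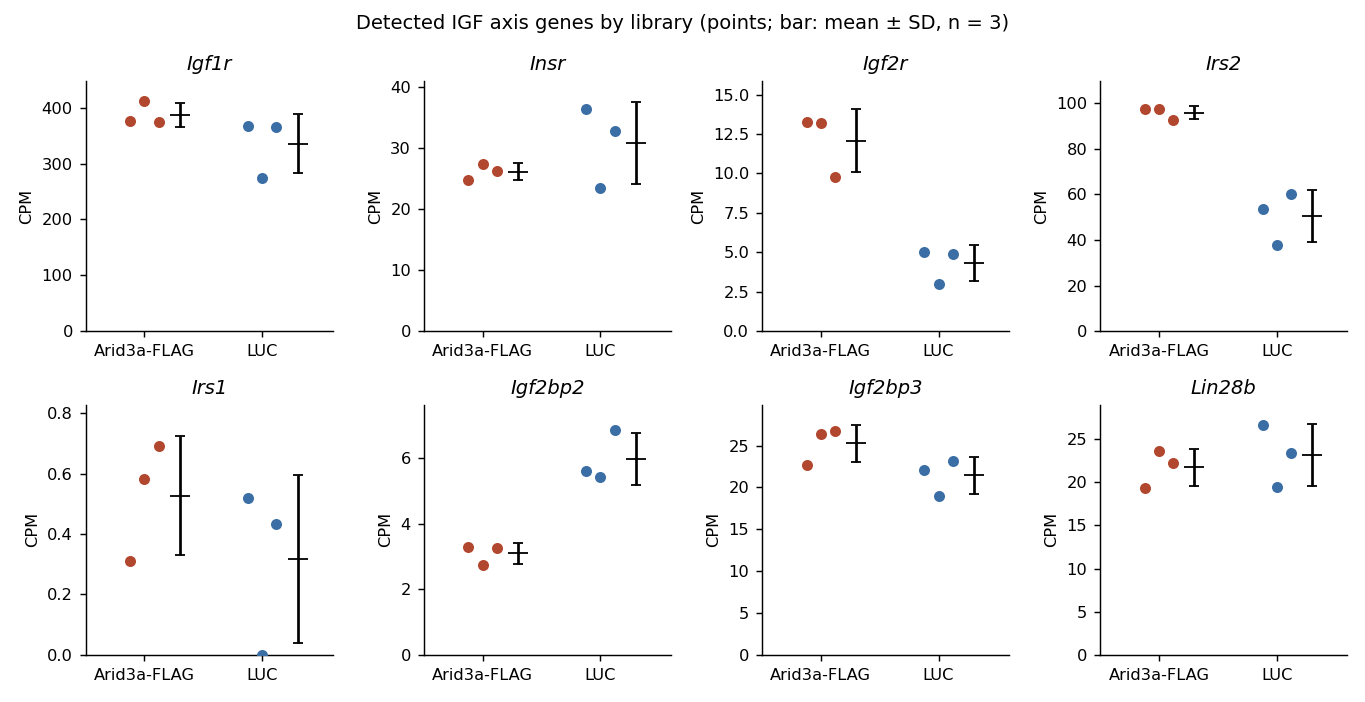
Level of the 8 detected genes in CPM, from 0, with 1 point per library, Arid3a-FLAG on the left and LUC on the right of each panel; bars are means ± SD of 3 libraries. Igf2r and Irs2 stand higher and Igf2bp2 lower in all 3 Arid3a-FLAG libraries, and the y axes differ between panels.

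The ligand gene Igf2 (ENSMUSG00000048583, chr7:142650766-142666816, minus strand) had 0 counts in all 3 Arid3a-FLAG libraries and in all 3 LUC libraries. A count of 0 allows up to 3 counts, which is 0.174 to 0.188 CPM in the Arid3a-FLAG libraries and 0.162 to 0.196 CPM in the LUC libraries; such floors cover counting error only. Of its 5723 exon bases, 3596 are shared with Gm49394 on the same strand and 98 with the antisense gene Igf2os. Both of these also had 0 counts throughout, as did the insulin gene Ins2 next to them. The sources used here do not say how reads on exons shared by genes of 1 strand were counted, so the 0 of Igf2 may leave out reads of the shared bases. H19, the imprinted noncoding RNA gene on the same stretch of chromosome 7, was named after its values were seen and was detected at a low level, with 17, 16 and 16 counts with Arid3a-FLAG and 12, 14 and 16 counts with LUC. Igf1, also named after its values were seen, had between 0 and 2 counts per library. Both IGF ligand genes were thus at or near 0 in libraries where the IGF receptor genes were detected.

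The list of ligands and IGF-binding proteins held 19 genes, 10 of them at 0 in every library. None of the 6 tested rose and 1 fell, with a list median of -0.23. The gene that fell was Igfbp4, which encodes a secreted protein that binds IGFs and limits their access to the receptor. It had 107.2, 101.1 and 139.9 CPM with Arid3a-FLAG, against 154.7, 186.4 and 156.0 CPM with LUC. Every Arid3a-FLAG library lay below every LUC library, and edgeR's log2 fold change was -0.51 (SE 0.13, adjusted p = 0.0410). Only 2 of the 6 fits with a library left out still called it, and adjusted p-values reached 0.196.

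Igf1r (ENSMUSG00000005533, chr7:67952827-68233668, plus strand), which encodes the main signalling receptor for both IGFs, was the most abundant of the 10 genes. It had 376, 412 and 374 CPM with Arid3a-FLAG, against 368, 275 and 366 CPM with LUC. The Arid3a-FLAG libraries all lay above the LUC libraries, but replicates 1 and 3 of LUC came within a few percent of them and replicate 2 stood low. The means were 387 ± 21.1 CPM with Arid3a-FLAG and 336 ± 53.2 CPM with LUC (SD, n = 3 each), and the log2 fold change of 0.20 (SE 0.12, 95% interval -0.06 to 0.47) had an adjusted p of 0.318 in edgeR's test. Leaving out each library in turn gave log2 fold changes of 0.09 to 0.30, and none of the 6 fits called it.

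Insr (ENSMUSG00000005534, chr8:3122061-3279617, minus strand), the insulin receptor gene, had 24.8, 27.4 and 26.3 CPM with Arid3a-FLAG, against 36.3, 23.4 and 32.8 CPM with LUC. The groups overlapped through replicate 2 of LUC, which was the lowest of the 6 libraries. The log2 fold change was -0.24 (SE 0.15, 95% interval -0.57 to 0.09, adjusted p = 0.344, edgeR). Without replicate 2 of LUC it was -0.39 and passed, with an adjusted p of 0.0184, so this library decided the call. More genes passed over the whole table in that fit, 1191 higher and 1095 lower, against 467 and 527 with all libraries. As a share of Igf1r and Insr together, per kilobase of exon, Insr took 7.44%, 7.52% and 7.92% with Arid3a-FLAG, against 10.8%, 9.43% and 9.88% with LUC. The share was lower in all 3 Arid3a-FLAG libraries, with a mean difference of -2.40 percentage points. A two-sided exact permutation test gave p = 0.1 (0.15 adjusted over 3 shares), the smallest that 3 against 3 libraries allow.

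Igf2r (ENSMUSG00000023830, chr17:12682406-12769664, minus strand) had the largest fold change and the smallest p of the 7 tested genes. It encodes the cation-independent mannose 6-phosphate receptor, which takes IGF2 to lysosomes and, in the mouse, is expressed mainly from the maternal copy. It had 13.3, 13.2 and 9.79 CPM with Arid3a-FLAG, against 5.03, 3.01 and 4.91 CPM with LUC. The lowest Arid3a-FLAG library was nearly double the highest LUC library. The means were 12.1 ± 1.99 CPM with Arid3a-FLAG and 4.32 ± 1.13 CPM with LUC (SD, n = 3 each), a 2.78-fold rise or 1.48 on the log2 scale (SE 0.22, 95% interval 0.99 to 1.96, adjusted p = 0.00396, edgeR). The values rest on 156 to 227 counts per Arid3a-FLAG library and 46 to 91 counts per LUC library. The rise passed in all 6 fits that left out a library, with log2 fold changes of 1.30 to 1.61, the lowest without replicate 2 of LUC, and adjusted p-values of up to 0.0278.

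The promoter of Igf2r is shown with that of Irs2, the other gene that rose, and that of Igf2bp2, the gene that fell. The 300-base windows reach from upstream to just past the RefSeq start site on GRCm38.p6, on the strand of the gene, at chr17:12769657-12769956, chr8:11008880-11009179 and chr16:22163250-22163549, all minus strand. For Irs2 the RefSeq start lies upstream of the gene start in GENCODE M21. Capitals mark the E-box CACGTG.
Igf2r promoter: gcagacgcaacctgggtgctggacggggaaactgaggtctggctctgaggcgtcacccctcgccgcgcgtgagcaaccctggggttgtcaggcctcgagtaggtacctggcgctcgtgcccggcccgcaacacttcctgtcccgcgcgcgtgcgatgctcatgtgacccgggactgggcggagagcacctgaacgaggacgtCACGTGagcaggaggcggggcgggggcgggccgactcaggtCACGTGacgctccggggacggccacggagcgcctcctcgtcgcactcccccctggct
Irs2 promoter: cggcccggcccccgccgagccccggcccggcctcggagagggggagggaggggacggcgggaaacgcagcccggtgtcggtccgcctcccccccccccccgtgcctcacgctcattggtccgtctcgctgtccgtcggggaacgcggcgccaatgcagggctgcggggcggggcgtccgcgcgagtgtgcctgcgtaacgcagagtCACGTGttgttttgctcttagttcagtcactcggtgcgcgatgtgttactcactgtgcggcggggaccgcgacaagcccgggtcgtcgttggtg
Igf2bp2 promoter: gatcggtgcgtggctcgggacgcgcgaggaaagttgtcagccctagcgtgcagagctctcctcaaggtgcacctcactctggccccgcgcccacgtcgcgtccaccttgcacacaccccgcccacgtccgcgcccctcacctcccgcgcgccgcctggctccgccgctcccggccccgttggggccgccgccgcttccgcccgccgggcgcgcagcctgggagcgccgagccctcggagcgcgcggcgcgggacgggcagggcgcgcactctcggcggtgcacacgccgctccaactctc

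All 3 windows were rich in G and C, at 70.7% for Igf2r, 72.0% for Irs2 and 76.7% for Igf2bp2, beside a median of 52.7% over 32851 promoters. Promoters of 8 of the 10 genes were matched by symbol; Insr and Igf2bp1 were not. CACGTG, which reads the same on both strands, began 48 and 7 bases before the Igf2r start and 44 bases before the Irs2 start, and it was found in 5 of the 8 genes (Irs1, Igf2bp3 and Lin28b as well), against 7.15% of all promoters and 10.4% of those with at least 70% G and C. ATTAAA, letters reported for ARID3A binding, was searched on both strands and matched in 0 of the 8 genes, against 13.9% of all promoters and 0.794% of those with at least 70% G and C. AGATAA, letters bound by GATA factors, was matched in Lin28b alone, against 11.2% of all promoters. The members were counted by gene and the background by promoter, with 32851 promoters for 27025 symbols, so the units differ. Igf2, for example, had several windows. The windows of Igf2bp3 (60.3% G and C) and Lin28b (39.0%) lie below the 70% of the second background. The 3 motifs were chosen after the values were seen, and the matches describe letters only.

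The antisense noncoding RNA gene Airn starts inside Igf2r on the opposite strand, 28353 bases from the Igf2r start site, and runs across that start. Airn is known to silence the paternal Igf2r copy in most mouse tissues. The annotated exons of Igf2r and Airn shared 0 bases, but 519 of the 9308 exon bases of Igf2r (5.58%) lie within the span of Airn, so unspliced Airn could add reads to them, and strand use in the counting is not given. Airn itself had 12, 18 and 19 counts with Arid3a-FLAG, against 6, 6 and 14 counts with LUC. At the read density of its own exons, Airn would place 0.866 to 2.74 counts per library on those 519 bases, beside the 46 to 227 counts of Igf2r. The density of its introns was not measured, so the part of unspliced Airn in the Igf2r counts was not tested. Airn did not pass, at 0.97 on the log2 scale (SE 0.42, adjusted p = 0.179, edgeR), and its groups overlapped.

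Slc22a3, an organic cation transporter gene of the same imprinted cluster (chr17:12418960-12507704, minus strand), moved the other way. It had 14.4, 13.5 and 22.1 CPM with Arid3a-FLAG, against 30.05, 26.6 and 26.9 CPM with LUC. The groups were separate, with replicate 3 of Arid3a-FLAG nearest to LUC, and the log2 fold change was -0.74 (SE 0.17, adjusted p = 0.0306, edgeR). Only 2 of the 6 fits with a library left out still called it (adjusted p of up to 0.144), and 420 of its exon bases are shared with Plg on the opposite strand.

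**Figure D3:**
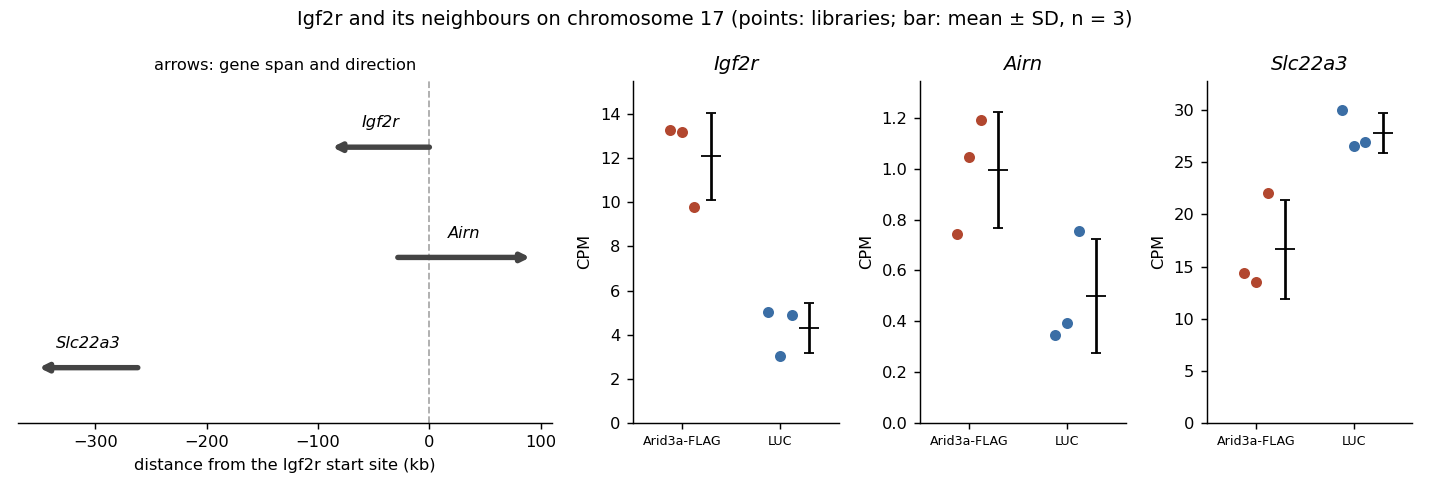
Left, spans and directions of Igf2r, Airn and Slc22a3 in kilobases from the Igf2r start site (dashed line). Right, their CPM by library, Arid3a-FLAG left of LUC, with mean ± SD of 3 libraries; Igf2r is higher and Slc22a3 lower in all Arid3a-FLAG libraries, while the groups overlap for Airn.

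The genes most like Igf2r over the 6 libraries were Tpr, a nuclear pore protein gene (Pearson r = 0.998 of log2 CPM), Ubr1, a ubiquitin ligase gene (r = 0.997), and Meis1, a homeobox gene (r = 0.996). They were the top 3 of 9617 genes of at least 5 CPM, of which 324 reached r = 0.95, so the pattern was a common one and 6 libraries do not single these genes out. The 6 points share the split into groups and library depth. Pearson r does not measure the size of a rise, and all 3 genes rose less than Igf2r. Tpr had 256, 252 and 243 CPM with Arid3a-FLAG, against 210, 190 and 211 CPM with LUC. Ubr1 had 70.3, 69.1 and 64.7 CPM against 51.8, 44.6 and 53.4 CPM, and Meis1 had 151, 154 and 142 CPM against 125, 108 and 122 CPM, in the same order.

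Irs2 (ENSMUSG00000038894, chr8:10984681-11008458, minus strand) rose with Arid3a-FLAG. Its protein docks on the activated IGF1 and insulin receptors and recruits PI3K. It had 97.5, 97.5 and 92.6 CPM with Arid3a-FLAG, against 53.7, 37.8 and 60.3 CPM with LUC. The Arid3a-FLAG libraries were close to each other and all far above the LUC libraries, of which replicate 2 was the lowest. The means were 95.9 ± 2.83 CPM with Arid3a-FLAG and 50.6 ± 11.6 CPM with LUC (SD, n = 3 each), a 1.89-fold rise or 0.92 on the log2 scale (SE 0.15, 95% interval 0.60 to 1.24, adjusted p = 0.00531, edgeR). All 6 fits that left out a library called it, with log2 fold changes of 0.76 (without replicate 2 of LUC) to 1.09 and adjusted p-values of up to 0.0379. The opposite-strand gene 9530052E02Rik shares 162 exon bases with Irs2 and had 1 to 4 counts per library.

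Irs1 (ENSMUSG00000055980, chr1:82233101-82291416, minus strand), the sister adaptor, was too low to test, with 5, 10 and 11 counts with Arid3a-FLAG and 9, 0 and 8 counts with LUC. The groups overlapped. Per kilobase of exon, Irs2 made up 99.8%, 99.6% and 99.5% of the pair with Arid3a-FLAG and 99.3%, 100% and 99.5% with LUC. Transcripts of this pair were thus nearly all Irs2 in both groups (difference 0.0052 percentage points, exact permutation p = 1). Other IRS genes did not enter this share.

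Igf2bp2 (ENSMUSG00000033581, chr16:22059009-22163299, minus strand), which encodes an RNA-binding protein of the IGF2BP family, fell with Arid3a-FLAG. It had 3.29, 2.73 and 3.26 CPM with Arid3a-FLAG, against 5.60, 5.43 and 6.85 CPM with LUC. All Arid3a-FLAG libraries lay well below all LUC libraries. The means were 3.09 ± 0.317 CPM with Arid3a-FLAG and 5.96 ± 0.778 CPM with LUC (SD, n = 3 each), 1.93-fold lower or -0.95 on the log2 scale (SE 0.20, 95% interval -1.39 to -0.51, adjusted p = 0.0199, edgeR). The gene was counted thinly, with 47 to 53 counts per Arid3a-FLAG library and 83 to 127 counts per LUC library. The direction held in all 6 fits that left out a library, with log2 fold changes of -0.998 to -0.806. However, 5 of the 6 no longer passed (adjusted p 0.0519 to 0.110). The exception was the fit without replicate 2 of LUC (adjusted p = 0.00840), where more genes passed over the whole table.

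Igf2bp3 (ENSMUSG00000029814, chr6:49085223-49214957, minus strand), a family member linked to fetal blood in the mouse, did not pass. It had 22.7, 26.4 and 26.7 CPM with Arid3a-FLAG, against 22.1, 18.96 and 23.2 CPM with LUC. The groups overlapped between replicate 1 of Arid3a-FLAG and replicate 3 of LUC, and the log2 fold change was 0.24 (SE 0.12, 95% interval -0.03 to 0.50, adjusted p = 0.253, edgeR). This value is uncertain, because 1529 exon bases are shared with Malsu1, a mitochondrial ribosome assembly gene on the opposite strand, whose own log2 fold change was -0.36 (adjusted p = 0.190). Igf2bp1 (ENSMUSG00000013415, chr11:95957163-96005940, minus strand), the third paralogue, had 0 counts in every Arid3a-FLAG and every LUC library over 9682 exon bases.

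Within the family, per kilobase of exon, Igf2bp2 took 13.8%, 10.2% and 11.9% with Arid3a-FLAG, against 21.8%, 24.0% and 24.6% with LUC, and Igf2bp3 took the rest. The groups were clearly apart. The means were 11.97% ± 1.78 with Arid3a-FLAG and 23.5% ± 1.44 with LUC (SD, n = 3 each), a difference of -11.5 percentage points, and the two-sided exact permutation test gave p = 0.1 (0.15 adjusted over 3 shares), the smallest possible here. Library scaling does not enter this share, but the exon bases that Igf2bp3 shares with Malsu1 do, so the share is uncertain as well. Leaving out each library in turn gave differences of -12.4 to -10.6 percentage points.

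Lin28b (ENSMUSG00000063804, chr10:45376620-45486395, minus strand), whose protein keeps let-7 precursors from maturing, was detected in every library. It had 19.3, 23.6 and 22.2 CPM with Arid3a-FLAG, against 26.6, 19.5 and 23.3 CPM with LUC. The groups overlapped over almost their whole range, and the log2 fold change was -0.09 (SE 0.14, 95% interval -0.40 to 0.21, adjusted p = 0.708, edgeR). Its paralogue Lin28a, named after its values were seen, had 2 counts in 1 Arid3a-FLAG library and 0 in the other libraries. Hmga2, a let-7 target gene of the fetal programme that was likewise named after its values were seen, had 9.87, 10.2 and 15.1 CPM with Arid3a-FLAG and 11.04, 8.37 and 14.7 CPM with LUC (log2 fold change 0.04, adjusted p = 0.937, edgeR).

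**Figure D4:**
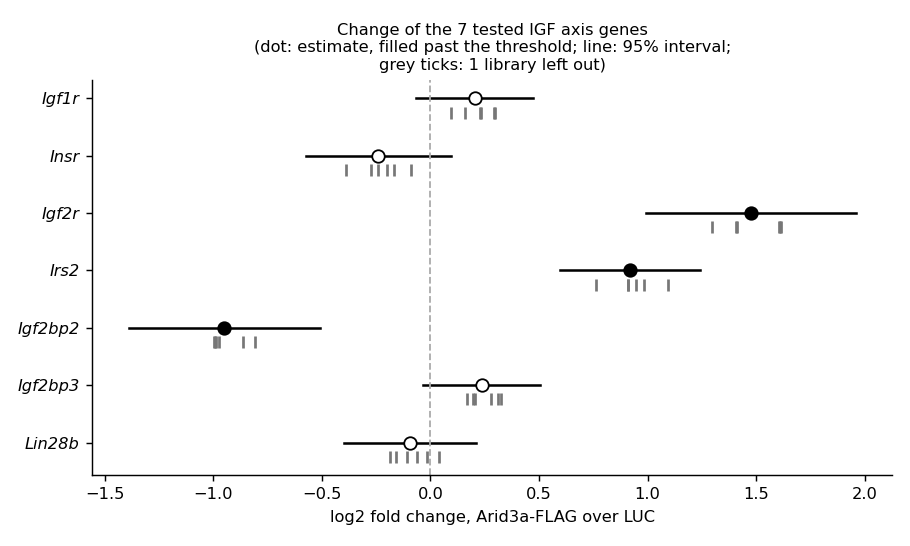
Log2 fold change, Arid3a-FLAG over LUC, of the 7 tested genes: dots are estimates, filled where the adjusted p is under 0.05, lines are 95% intervals, and grey ticks are the estimates with 1 library left out. The intervals of Igf2r, Irs2 and Igf2bp2 lie clear of 0; those of Igf1r, Insr, Igf2bp3 and Lin28b span it.

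Levels were compared between genes as CPM per kilobase of exon. With Arid3a-FLAG the order was Igf1r (23.1), Irs2 (15.2), Igf2bp3 (3.10), Lin28b (2.39), Insr (1.90), Igf2r (1.30), Igf2bp2 (0.418) and Irs1 (0.0577), with each gene above the next in level in all 3 libraries. With LUC it was Igf1r (20.0), Irs2 (8.001), Igf2bp3 (2.63), Lin28b (2.55), Insr (2.24), Igf2bp2 (0.806), Igf2r (0.464) and Irs1 (0.0347). There, neighbours from Igf2bp3 to Insr overlapped, and Irs1 overlapped 0. Igf2r and Igf2bp2 thus traded places. The place of Igf2bp3 in both orders is uncertain, because it shares 1529 exon bases with Malsu1 on the opposite strand. Among 13622 tested genes with an exon length, Igf1r exceeded 80.7% with Arid3a-FLAG and 77.8% with LUC, Irs2 exceeded 72.0% with Arid3a-FLAG and 55.5% with LUC, and Igf2r exceeded 20.9% with Arid3a-FLAG and 8.73% with LUC.

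The summed markers of mast cells and basophils, and those of endothelium and stroma, were lower in every Arid3a-FLAG library than in every LUC library, while the sums of the other lists overlapped between the groups. Mast cell and basophil markers summed to 2436 to 3279 CPM with Arid3a-FLAG and 3340 to 3901 CPM with LUC, with 12 of 12 detected and 3 of 10 tested genes lower. Of the 10 tested, 5 had a log2 fold change above 0. Fcer1a had 304, 257 and 391 CPM with Arid3a-FLAG, against 680, 860 and 705 CPM with LUC. Gata2 overlapped between the groups, with 1203, 1274 and 1392 CPM against 1090, 1084 and 1431 CPM, in the same order. This sum does not stand for every gene of its list. Endothelial and stromal markers summed to 294 to 427 CPM with Arid3a-FLAG and 501 to 607 CPM with LUC. Of these, 2 of 7 tested genes were higher and 2 lower, and 6 of 20, including Cdh5, Col3a1 and Pdgfra, were at 0. Most of this sum was Vim, with 226, 185 and 291 CPM with Arid3a-FLAG, against 374, 476 and 405 CPM with LUC. Sparc (15.8, 14.5 and 13.1 CPM with Arid3a-FLAG, against 7.80, 8.30 and 8.85 CPM with LUC) and Kdr went the other way. The sum therefore does not describe the list as a whole. Of the megakaryocyte markers 6 of 15 were higher and 1 lower. Erythroid markers summed to 732 to 862 CPM with Arid3a-FLAG and 643 to 824 CPM with LUC, with 4 of 13 tested genes higher and 2 lower and Slc4a1 alone at 0. Neutrophil and monocyte markers summed to 40.2 to 63.5 CPM with Arid3a-FLAG and 46.6 to 53.2 CPM with LUC, with 1 of 8 tested genes higher and 3 lower and Ly6g alone at 0. The counts of marker genes higher and lower are to be read against 3.43% higher and 3.87% lower over all tested genes. The part of these cell types in the changes of Igf2r, Irs2 and Igf2bp2 was not tested.

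Around the 10 genes, 7 pathway lists held 134 further tested genes, of which 8 rose and 7 fell (11.2%, beside 7.29% of all tested genes). Their median log2 fold change was 0.07. The lists follow textbook membership of the pathway and were written with earlier results of these data known, and some genes stand in several lists.

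Among receptor adaptors and brakes, 21 genes were tested, 3 rose, 1 fell and 17 did not pass, with a list median of 0.07. Ptpn11, which encodes the phosphatase SHP2 that couples receptors to RAS, had 475, 488 and 468 CPM with Arid3a-FLAG, against 303, 271 and 331 CPM with LUC. Every Arid3a-FLAG library was above every LUC library (log2 fold change 0.66, SE 0.10, edgeR's adjusted p = 0.00439). Sh2b2, an adaptor that binds the activated insulin receptor, had 19.7, 21.7 and 19.8 CPM with Arid3a-FLAG, against 32.9, 33.8 and 36.9 CPM with LUC. The groups were tight and far apart, at -0.76 on the log2 scale (SE 0.10, adjusted p = 0.00267, edgeR). Both calls held in all 6 fits that left out a library. The third gene that rose beside Irs2 was Nedd4, a ubiquitin ligase gene, by 0.42 (adjusted p = 0.0357); it passed in 2 of those 6 fits.

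In the PI3K-AKT-mTOR list all 39 genes were tested, and 1 rose, none fell and 38 did not pass. The list median was 0.13, and 28 of 39 log2 fold changes were above 0, beside 45.3% of all tested genes. The gene that rose was Pdpk1, the kinase PDK1 that activates AKT, at 107.6 ± 2.84 CPM with Arid3a-FLAG and 75.7 ± 11.3 CPM with LUC (SD, n = 3 each). Its log2 fold change was 0.51 (adjusted p = 0.0234, edgeR), and the call held in 2 of 6 fits that left out a library (adjusted p of up to 0.114). Pdpk1, Nedd4 and Irs2 were each lowest in replicate 2 of LUC. Without that library all 3 still passed in edgeR's test, with smaller log2 fold changes. These were 0.41 for Pdpk1 (adjusted p = 0.00354), 0.37 for Nedd4 (adjusted p = 0.00217) and 0.76 for Irs2 (adjusted p = 9.8e-05). Over the whole table, more genes passed in that fit than with all libraries.

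Among FOXO factors and FOXO target genes, which AKT signalling represses, 23 were tested, 1 rose, 3 fell and 19 did not pass, with a list median of -0.04. The gene that rose was Irs2 itself. Txnip, the thioredoxin-interacting protein that restrains glucose uptake, fell by 0.68 on the log2 scale (adjusted p = 0.00868, 4 of 6 fits without a library). Tnfsf10, the death ligand TRAIL, fell by 0.99 (adjusted p = 0.0386) and Sesn3, a sestrin that restrains mTORC1, fell by 0.53 (adjusted p = 0.0439), both passing in 2 of those 6 fits. The value of Txnip is uncertain, as the opposite-strand gene Gm15441 shares 606 of its exon bases.

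The list of LIN28, let-7 processing and reported let-7 targets had 34 tested genes, of which 3 rose, 2 fell and 29 did not pass, with a median of 0.05. Thbs1, the platelet glycoprotein thrombospondin-1, had 254, 296 and 295 CPM with Arid3a-FLAG, against 32.7, 32.9 and 75.1 CPM with LUC. The groups were far apart, at 2.58 on the log2 scale (SE 0.28, adjusted p = 0.00067, edgeR). Thbs1 is also a megakaryocyte marker. Irs2 also rose. Besides Igf2bp2, Cdk6, a G1 cyclin-dependent kinase gene, fell by 0.59 on the log2 scale (adjusted p = 0.0231). Cdk6 passed in 1 of 6 fits that left out a library, and it shares exon bases with the opposite-strand gene Gm17590.

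The list of transcripts reported to be bound by IGF2BP proteins had 17 tested genes. Of these, 2 rose, 1 fell and 14 did not pass, with a median of 0.04. Cd44, an adhesion receptor gene, rose by 0.40 (adjusted p = 0.0257, edgeR), and the gene that fell was Cdk6. Dhx9, an RNA helicase gene, rose by 0.38 (adjusted p = 0.0272, edgeR). The DHX9 protein binds IGF2BP1 in human cells, which is not binding of the transcript. The counts thus describe the list and not bound transcripts alone. Cd44 and Dhx9 each passed in 2 of 6 fits that left out a library. Of imprinted growth genes, 13 were tested, 2 rose (Igf2r and Peg10), 1 fell (Slc22a3) and 10 did not pass, with a median of 0.19. Peg10, a retrotransposon-derived gene expressed from the paternal copy, had 138.3, 139.2 and 142.4 CPM with Arid3a-FLAG, against 92.5, 83.1 and 118.3 CPM with LUC. The groups were separate, with a log2 fold change of 0.51 (adjusted p = 0.0320, edgeR, 2 of 6 fits without a library).

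**Figure D5:**
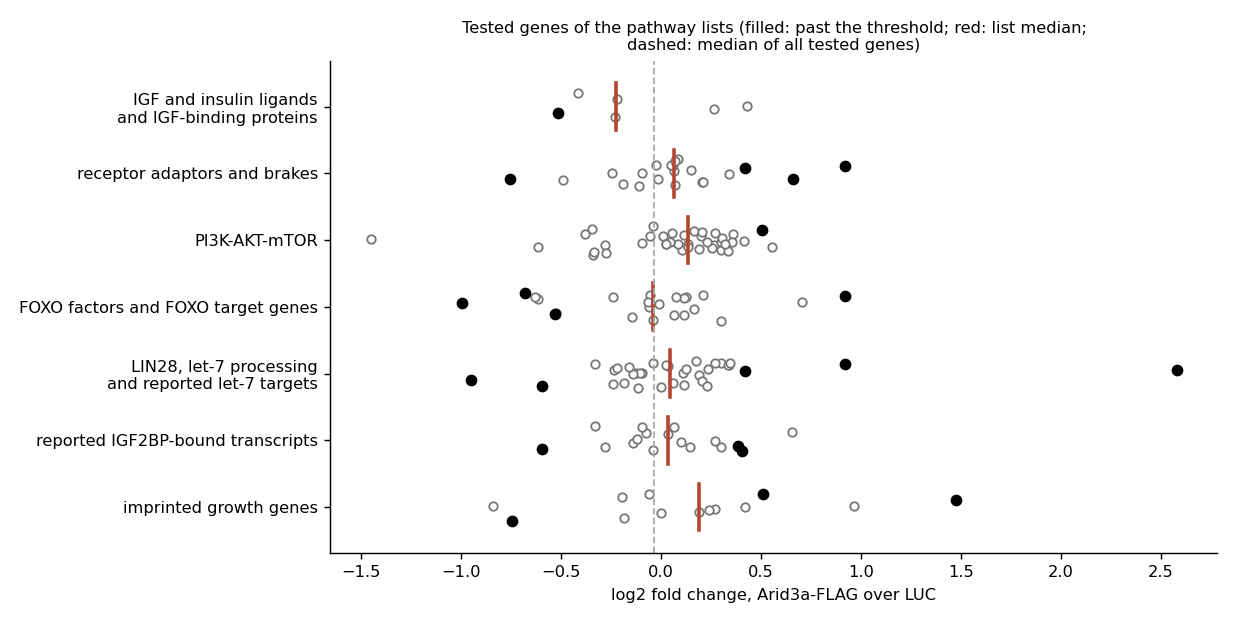
Log2 fold change, Arid3a-FLAG over LUC, of every tested gene in the 7 pathway lists (1 point per gene, spread vertically for legibility); filled points have an adjusted p under 0.05, red lines are list medians and the dashed line is the median of all tested genes. List medians run from -0.23 to 0.19, and Thbs1 at 2.58 and Igf2r at 1.48 are the highest points.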

How the data were processed

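The authors deposited 1 table of read counts per gene, with whole numbers and no normalization, for 6 RNA-seq libraries of total RNA. Per the submitters' processing notes, fastp, HISAT2 2.0.5 and featureCounts were used with the build mm10. The sources used here give neither their settings nor the annotation or strand use. Reads of a gene and of an antisense neighbour may therefore not have been told apart. The construct entry was left out of library sizes and gene tests.

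In R 4.3.3, edgeR 4.0.16 kept genes by filterByExpr (defaults), scaled libraries by TMM factors and compared Arid3a-FLAG with LUC by the two-sided quasi-likelihood F test, with Benjamini-Hochberg adjustment over 13631 genes and a threshold of 0.05. CPM used TMM-scaled library sizes. Coordinates and exon lengths came from GENCODE M21 on GRCm38, promoters and microRNAs from RefSeq (GRCm38.p6) and 3′ UTRs from GENCODE M21 transcripts. Library totals of 15730908 to 18249053 counts limit precision for the low genes.

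The 10 genes, the lists, the alternatives and the naming rule were chosen with earlier results of these data known. The rule named all 10, every pathway gene past the threshold, genes on a member's exons, and the 3 genes most like the member with the smallest p; 1 gene that met it is not reported here. The alternatives left out each library in turn, scaled by upper quartile or RLE factors, blocked on the replicate number, dropped the filter or asked for 5 CPM in 3 libraries, set the threshold at 0.01, or used limma-voom (limma 3.58.1) or DESeq2 1.42.0.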

Additional observations from a re-analysis of the deposited data

Results flagged for a closer look

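The table also held an entry for the FLAG-tagged Arid3a construct, which is not a gene of the comparison. It averaged 187.8 ± 18.5 CPM in the Arid3a-FLAG libraries (SD, n = 3) and had 0 counts in each LUC library, which places the construct in the libraries the labels name.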

How the results depend on the processing

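Igf2r and Irs2 kept direction and call under every alternative run, and 2 genes of the 10 were higher with each library left out. The 1 lower gene, Igf2bp2, became 0 with a minimum of 5 CPM in 3 libraries, where it was not tested, and 0 at an adjusted p under 0.01; leaving out each library in turn gave 0 to 2. Lin28b ran from -0.188 to 0.039 on the log2 scale with each library left out, above 0 without replicate 1 of LUC (adjusted p = 0.901); the cause was not tested. Over all genes, 467 higher became 869 without a filter, 771 with DESeq2 and 125 at an adjusted p under 0.01, and 115 to 1191 with each library left out; 527 lower became 1076 without a filter and 137 at an adjusted p under 0.01, and 118 to 1095 with each library left out. Of the pathway genes, the 10 higher became 22 without a filter and 17 with DESeq2, and 4 to 23 with each library left out; the 8 lower became 13 without a filter, and 1 to 15 with each library left out. The highest of these counts came without replicate 2 of LUC. Of 285 comparisons for 22 named genes, 228 kept direction and side of the threshold, and 5 of 18 called genes kept the call throughout. RLE and upper quartile factors moved the median log2 fold change of all genes to -0.02 and -0.05.

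Deviations of same-numbered libraries correlated at -0.10, -0.11 and 0.12, so the numbers were not taken to pair the samples. With the replicate number as a block, 410 genes were higher and 530 lower, 2 of the 10 were higher and 1 lower, and 9 pathway genes were higher and 10 lower; Nedd4 (adjusted p = 0.0780) and Dhx9 (0.0575) no longer passed.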
